A study of Mus musculus with 8 samples.

Results

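Jag2, Mfng and Nrarp are the genes of a Notch pathway list that appear in the deposited RNA-seq table of hemogenic endothelium with and without Runx1. They were taken by gene symbol and are 3 of the 622 genes in that table. Hemogenic endothelium is the endothelium that gives rise to blood cells, and RUNX1 is a transcription factor needed for that step. It was derived from strain 129 mouse embryonic stem cells, by taking FLK1+ cells from embryoid bodies at d3.25, growing them for 2 further days in blast medium, and sorting the cKIT+ TIE2+ CD41- fraction. Wild-type (wt) cells came from the lines iDam and BryGFP, and Runx1-/- cells (ko) came from the lines iDamko and Ainv18ko, each with 2 biological duplicates according to the submitters. With 2 lines per genotype, differences between lines and between genotypes are told apart only as far as those lines go. Column names of iDam and iDamko hold Dam, and those of BryGFP and Ainv18ko do not. What this tag stands for, and what else the lines carry beyond their Runx1 genotype, is not given in the sources used here. Levels of the Runx1 transcript were not analysed here, and genotypes were taken from the labels.

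In Notch signalling, a ligand of the Delta or Jagged family on the surface of a cell binds a Notch receptor on its neighbour. The receptor is then cut, and its inner part enters the nucleus and switches on target genes together with the DNA-binding protein RBPJ. Fringe enzymes add a sugar to Notch receptors and so change how well they respond to Delta and to Jagged ligands, and NRARP is a small ankyrin-repeat protein that is made from a Notch target gene and dampens the signal. The pathway is known for its roles in arterial identity and in the emergence of blood stem cells from endothelium.

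Without Runx1, the ligand gene Jag2 was 2.21-fold higher, the feedback gene Nrarp was 1.97-fold lower, and the fringe gene Mfng was 13.8-fold lower, by the ratio of mean RPKM (reads scaled to the length of the gene and the depth of the library). The levels of the ko and wt libraries did not overlap for any of the 3 genes. All 622 genes of the table (100%) have a false discovery rate (FDR) under 0.05 for ko against each wt line in the authors' deposited table, which thus holds selected genes. Non-overlap was found for 99.4% of the 622, and the differences between ko and wt describe size and are no independent evidence. Comparisons between lines of the same genotype were not a criterion of that selection, but they are not free of it. The genes differ between ko and each wt line, so the levels of the wt lines and of the ko libraries shaped the selection. Shares of genes that passed between lines of a genotype therefore describe these selected genes only.

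The Notch list held 53 genes, and the other 50, all 4 receptor genes, the other ligands, and the HES and HEY target genes among them, were outside the table and were not analysed here. Of the 3 in the table, 2 were lower in ko and 1 higher, against 387 lower and 235 higher of all 622 genes.

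The promoter windows of Jag2 and Nrarp, from 250 bases before to 50 bases after the start of the RefSeq transcript (GRCm38.p6), are shown because the genes went in opposite directions in cells that lack a DNA-binding factor. The Jag2 window is chr12:112929446-112929745 on the minus strand and the Nrarp window is chr2:25180508-25180807 on the plus strand. In GENCODE M21, Jag2 starts farther upstream, at 112929776, so its window lies within that gene model. Sequence upstream of that start was not searched. Capitals mark the only match found in the windows, and a window for Mfng was not used here.
Jag2: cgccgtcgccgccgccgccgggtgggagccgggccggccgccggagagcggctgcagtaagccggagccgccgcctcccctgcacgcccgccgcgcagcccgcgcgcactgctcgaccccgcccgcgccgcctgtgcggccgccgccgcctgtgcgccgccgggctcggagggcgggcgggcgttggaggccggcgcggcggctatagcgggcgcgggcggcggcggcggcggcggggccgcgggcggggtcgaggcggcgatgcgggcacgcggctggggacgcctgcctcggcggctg
Nrarp: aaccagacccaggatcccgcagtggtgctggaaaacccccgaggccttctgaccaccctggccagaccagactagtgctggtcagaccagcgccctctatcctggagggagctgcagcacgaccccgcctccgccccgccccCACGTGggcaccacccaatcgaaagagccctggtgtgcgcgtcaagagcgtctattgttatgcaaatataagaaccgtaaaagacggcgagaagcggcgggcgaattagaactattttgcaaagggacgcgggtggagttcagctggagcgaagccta
Both strands were searched for the RUNX core as TGTGGT or TGCGGT, for the RBPJ core TGGGAA, and for CACGTG, a pattern bound by basic helix-loop-helix factors, and none of these patterns contains another. Neither window held a RUNX or RBPJ core as spelled here, which says only that these letters are not in these windows. A RUNX core was found in 22.4% of 32851 mouse promoter windows of that length and the RBPJ core in 25.6%. The Nrarp window held CACGTG once, at position −108 from the start, and 7.15% of all windows held it. The windows differed in base composition, with 86% G and C for Jag2, more than in 99.9% of all windows, and 60% for Nrarp, where the median window had 52.7%. By GENCODE M21 the Jag2 window lies inside the gene, while the Nrarp window spans the start of its gene, at 25180758. These values thus compare unlike regions under that annotation.

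The depth behind these values was estimated from the steps of the lowest RPKM values, of which 42.9% to 73.2% per library came out as whole reads, and came to between 42240000 and 58645000 reads per library. The sort marker genes Kit, Tek and Itga2b were outside the table. Of 18 endothelial markers the table held Cldn5 and Clec14a, both detected in all 8 libraries. Same-numbered ko libraries of different lines were more alike (median difference over the table of 0.0915 for number 1 and 0.0997 for number 2, on the log2 scale) than the duplicates within iDamko (0.139) or within Ainv18ko (0.166), and the labels do not say what the numbers stand for. The 4 ko libraries may therefore hold less independent information than their number, and results within each number are given below.

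Jag2 (ENSMUSG00000002799; chromosome 12, 112907819 to 112929776, minus strand, GRCm38) encodes a Jagged-type Notch ligand. It was at 3.37 and 2.56 RPKM in the iDam libraries numbered 1 and 2 and at 2.24 and 1.57 in the BryGFP libraries. In the ko cells it was at 5.33 and 5.67 RPKM in iDamko and at 6.20 and 4.32 in Ainv18ko. The lowest ko library, Ainv18ko 2, was 1.28-fold above the highest wt library, iDam 1. By line, from highest to lowest, the mean level of Jag2 was 5.50 ± 0.240 RPKM in iDamko, 5.26 ± 1.33 in Ainv18ko, 2.96 ± 0.575 in iDam and 1.90 ± 0.475 in BryGFP (SD, n = 2 each). Neighbouring lines of the same genotype did not pass the tests given below, and the step from the lower ko line to the higher wt line was wider than that between lines of a genotype. These values rest on an estimated 333 to 1362 reads per library.

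**Figure D1:**
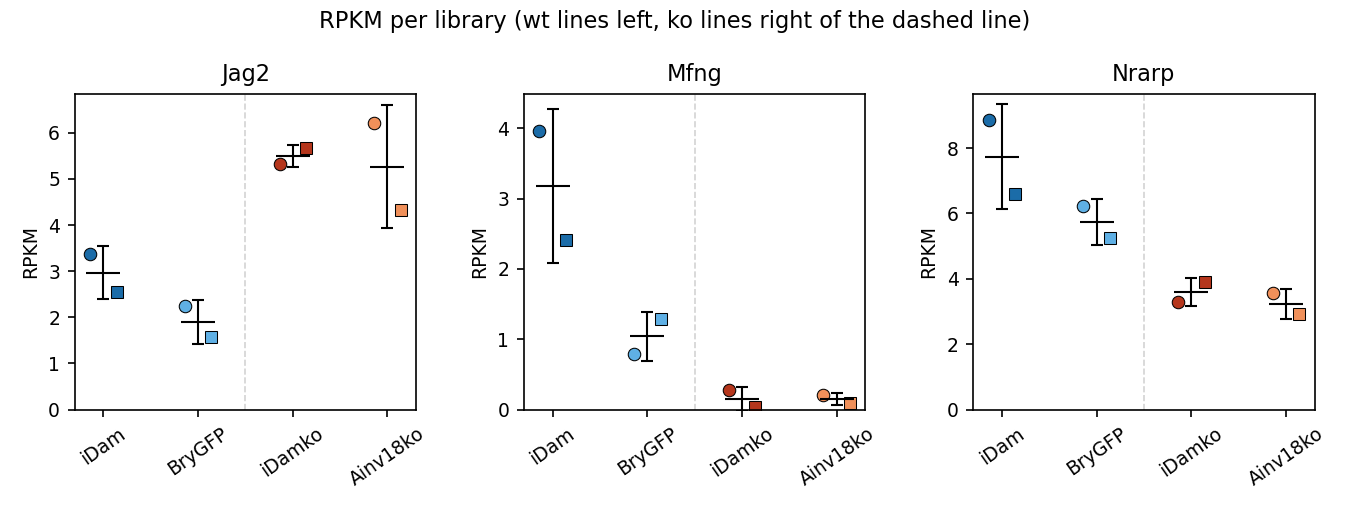
RPKM (vertical axis, from 0) of Jag2, Mfng and Nrarp in each of the 8 libraries, by line, with circles for libraries numbered 1, squares for those numbered 2, and bars for the line mean and SD (n = 2), cut at 0. Jag2 lies higher in every ko library than in any wt library, and Mfng and Nrarp lie lower.

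Jag2 was higher in ko than in wt by 0.91 ± 0.18 on the scale of log2(RPKM + 1) (SE; adjusted p = 0.00131 by limma, 4 libraries each). All 360 tested genes (100%) passed this comparison, 43.3% as higher and 56.7% as lower in ko, and the difference of Jag2 was close to the median of the genes that were higher in ko, 1.01. With the line means as replicates (2 per genotype), the adjusted p was 0.0211 by limma, and 342 of these genes were called. Quantile normalization raised the difference of Jag2 to 1.39, and that of iDamko against iDam to 1.13. The increase was 0.84 ± 0.23 among libraries numbered 1 (adjusted p = 0.0335) and 0.98 ± 0.26 among those numbered 2 (adjusted p = 0.0301), by limma. In iDamko against iDam it was 0.72 ± 0.23 (adjusted p = 0.0132 by limma, where 99.2% of genes passed), but without the iDam library 2 (adjusted p = 0.0850) or the iDamko library 2 (0.0586) it missed the threshold. In Ainv18ko against BryGFP it was 1.10 ± 0.23 (adjusted p = 0.00218 by limma, where 98.3% of genes passed). In the authors' deposited table, Jag2 was 1.93-fold higher in the 4 ko libraries than in iDam (FDR = 0.0124) and 2.89-fold higher than in BryGFP (FDR = 2.19e-06), and these comparisons share the ko libraries.

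Mfng (ENSMUSG00000018169; chromosome 15, 78755882 to 78773475, minus strand, GRCm38) encodes manic fringe, a glycosyltransferase that acts on the extracellular repeats of Notch receptors. It was at 3.96 and 2.41 RPKM in the iDam libraries and at 0.793 and 1.29 in the BryGFP libraries. In the ko cells it was at 0.276 and 0.0324 RPKM in iDamko and at 0.211 and 0.0928 in Ainv18ko. The lowest wt library, BryGFP 1, was 2.88-fold above the highest ko library, iDamko 1. By line, the mean level of Mfng was 3.18 ± 1.10 RPKM in iDam, 1.04 ± 0.352 in BryGFP, 0.154 ± 0.172 in iDamko and 0.152 ± 0.0835 in Ainv18ko (SD, n = 2 each). The ko lines did not differ beyond their spread, and the wt lines were 3.05-fold apart.

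Few reads stood behind Mfng in the ko cells: an estimated 14 in iDamko 1 (95% Poisson interval 7.65 to 23.5), 2 in iDamko 2 (0.242 to 7.22), 10 in Ainv18ko 1 (4.79 to 18.4) and 4 in Ainv18ko 2 (1.09 to 10.2). In wt the estimates were 226 and 109 reads in iDam and 38 and 72 in BryGFP, and the intervals cover counting error only. The interval of the lowest wt library, 26.9 to 52.2 reads, lay above that of the highest ko library. Transcripts of Mfng were thus detected in all 4 ko libraries, and the order among these was not resolved between neighbouring values at this depth.

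Mfng was lower in ko than in wt by 1.33 on the log2(RPKM + 1) scale (difference −1.33 ± 0.29, SE; adjusted p = 0.00193 by limma, 4 libraries each). With the line means as replicates, the adjusted p was 0.0399 by limma. Mfng passed the filter of a mean of 1 RPKM over the 8 libraries only through its wt level, and mainly through iDam. A pseudocount of 0.1 RPKM in place of 1 turned the difference into −3.01, and quantile normalization into −0.57 (adjusted p = 0.178 by limma), which ended the call. Quantile normalization gives the libraries a common distribution over genes that were all selected as differing, and it shifted the median difference of all 360 genes by 0.65. Among libraries numbered 1 the difference was −1.26 ± 0.55 (adjusted p = 0.0931) and among those numbered 2 it was −1.40 ± 0.28 (adjusted p = 0.0208), by limma.

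The fitted difference of Mfng was larger in the iDam pair of lines than in the BryGFP pair, but the test between them did not pass. In iDamko against iDam the difference was −1.84 ± 0.22 (adjusted p = 9.77e-05 by limma), which became −1.07 under quantile normalization and −3.84 with a pseudocount of 0.1 and kept its call. The difference in Ainv18ko against BryGFP was −0.82 ± 0.22 (adjusted p = 0.00797 by limma) and −2.19 with a pseudocount of 0.1, a call that ended without the BryGFP library 2 (0.0582) and under quantile normalization (0.788). The test of the difference between these effects gave −1.02 ± 0.32 (95% interval −1.74 to −0.31; adjusted p = 0.0770 by limma), a comparison in which 9.72% of genes passed. Without the iDam library 2 it was −1.29 (adjusted p = 0.0427). Ainv18ko was set against BryGFP only as the remaining line of each genotype. The ko lines differed by 0.0035 for Mfng, so the test between the pairs nearly repeats the difference between the wt lines, −1.02. In the authors' deposited table, Mfng was 20.1-fold lower in the 4 ko libraries than in iDam (FDR = 7.90e-16), the rank 47 of the 387 genes lower in ko by size of the fold. It was 6.09-fold lower than in BryGFP (FDR = 3.63e-05), the rank 144.

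Nrarp (ENSMUSG00000078202; chromosome 2, 25180758 to 25183339, plus strand, GRCm38) encodes the Notch-regulated ankyrin-repeat protein. It was at 8.87 and 6.60 RPKM in the iDam libraries and at 6.24 and 5.25 in the BryGFP libraries. In the ko cells it was at 3.29 and 3.91 RPKM in iDamko and at 3.56 and 2.92 in Ainv18ko. The lowest wt library, BryGFP 2, was 1.34-fold above the highest ko library, iDamko 2. By line, the mean level of Nrarp was 7.74 ± 1.61 RPKM in iDam, 5.75 ± 0.700 in BryGFP, 3.602 ± 0.437 in iDamko and 3.24 ± 0.455 in Ainv18ko (SD, n = 2 each). It kept 50.7% of its wt mean in the ko cells and was the most evenly expressed of the 3 genes among libraries of a genotype, on an estimated 318 to 1205 reads per library.

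Nrarp was lower in ko than in wt by 0.79 on the log2(RPKM + 1) scale (difference −0.79 ± 0.16, SE; adjusted p = 0.00148 by limma, 4 libraries each), and quantile normalization ended the call (−0.35, adjusted p = 0.217). By size it ranked 186 of the 204 tested genes that were lower in ko. With the line means as replicates, the adjusted p was 0.0223 by limma. The difference was −0.93 ± 0.22 among libraries numbered 1 (adjusted p = 0.0277) and −0.65 ± 0.22 among those numbered 2 (adjusted p = 0.0516), by limma. In iDamko against iDam it was −0.92 ± 0.21 (adjusted p = 0.00330 by limma). In Ainv18ko against BryGFP it was −0.67 ± 0.21 (adjusted p = 0.0150), which missed the threshold without the BryGFP library 1 (0.0848), without the Ainv18ko library 2 (0.0882) and under quantile normalization (0.811). In the authors' deposited table, Nrarp was 2.13-fold lower in ko than in iDam (FDR = 0.000679) and 1.65-fold lower than in BryGFP. Its FDR in the latter, 0.04997, was the highest of all 622 genes in that comparison, so Nrarp lay nearest to the threshold of 0.05 there.

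**Figure D2:**
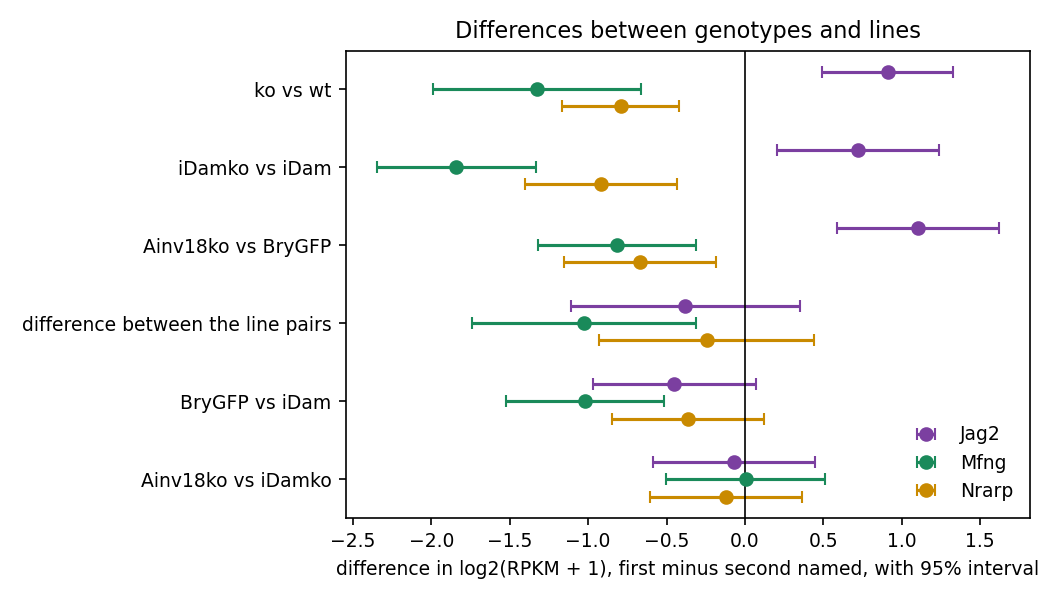
Differences in log2(RPKM + 1) of Jag2, Mfng and Nrarp (horizontal axis, first named minus second named, points with 95% intervals from limma) in the 6 comparisons. Intervals for ko against wt lie on one side of 0 for all 3 genes, and among comparisons of lines of the same genotype only the interval of Mfng for BryGFP against iDam excludes 0.

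Where levels are compared between genes, RPKM is already per length, but it depends on the gene model the authors used. The deposited CPM and RPKM values imply model lengths of 4.10 kb for Jag2, 1.08 kb for Mfng and 2.56 kb for Nrarp, against 6.96, 2.84 and 2.58 kb of exons in GENCODE M21. Under both sets of lengths Nrarp was the highest of the 3 genes in every wt library and Mfng the lowest in every ko library. In the ko libraries the order of Jag2 and Nrarp depended on the length: on the deposited scale Jag2 was above Nrarp in all 4, and per exon length of GENCODE M21 it was above Nrarp in Ainv18ko 1 and below it in the other 3.

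The ratio of Nrarp to Jag2 within a library does not depend on how libraries were scaled. It was 2.63 and 2.58 in iDam, 2.78 and 3.35 in BryGFP, 0.618 and 0.690 in iDamko, and 0.574 and 0.675 in Ainv18ko. The mean ratio was 2.84 ± 0.351 in wt and 0.639 ± 0.0535 in ko on the deposited lengths (SD, n = 4 each). With the exon lengths of GENCODE M21, an alternative chosen after seeing the data, it was 4.79 ± 0.592 in wt, and the ko libraries lay around 1, at 1.04, 1.17, 0.969 and 1.14. The size of the step between genotypes is the same under both, and whether the ratio falls below 1 in ko is not. That the genotypes separate follows from the selection of a higher and a lower gene. The ratio also varied less among libraries of a genotype than either gene did. Its coefficient of variation was 12.4% in wt, where that of Jag2 was 30.7% and that of Nrarp 22.7%, and 8.37% in ko, where they were 14.7% and 12.3%.

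**Figure D3:**
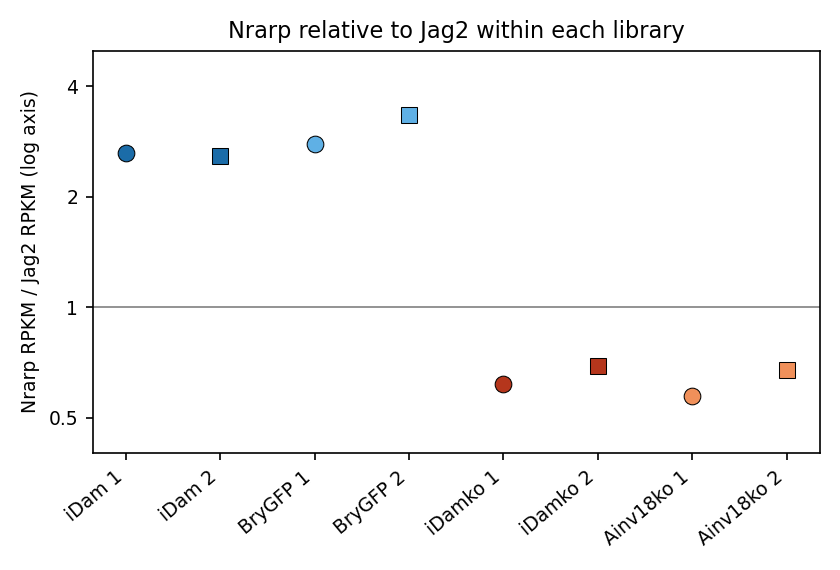
Ratio of Nrarp to Jag2 RPKM within each of the 8 libraries (vertical log axis, line at 1, deposited lengths), in wt lines (blue) and ko lines (red and orange). The 4 wt libraries lie between 2.58 and 3.35 and the 4 ko libraries between 0.574 and 0.690.

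Jag2 and Nrarp thus went opposite ways between genotypes and together within them. After the genotype mean was subtracted, Nrarp had a Pearson r of 0.94 with Jag2 over the 8 libraries (Spearman rho 0.929), the highest with Nrarp among the 359 other genes above the filter and the second highest with Jag2 after Mmp2 (0.944). Without the libraries farthest from the median of Jag2, iDam 1 and BryGFP 2, r was 0.813 over 6 libraries. Mfng followed Jag2 less closely, with r = 0.687, which was 0.32 without those libraries. The libraries share depth scaling and line, so these values are descriptions.

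**Figure D4:**
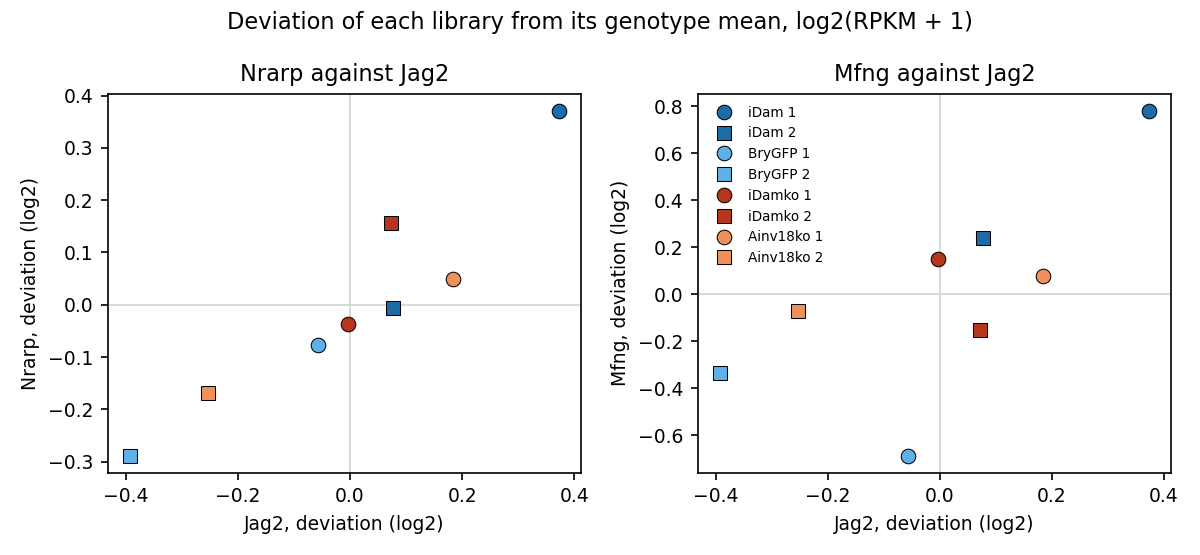
Deviation of each library from its genotype mean in log2(RPKM + 1), Nrarp (left) and Mfng (right) on the vertical axis against Jag2 on the horizontal axis, by line and library number. The iDam library 1 is high and the BryGFP library 2 low for Jag2 and Nrarp, and the left panel is the tighter with r = 0.94.

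The wt lines differed for Mfng. In BryGFP it was lower than in iDam by 1.02 on the log2(RPKM + 1) scale (difference −1.02 ± 0.22, SE; adjusted p = 0.0104 by limma, n = 2 each), in a comparison where 25.3% of genes passed, 6.11% as lower in BryGFP. Mfng passed the filter mainly through its level in iDam, 3.18 RPKM against 1.04 in BryGFP. This comparison is therefore not independent of the filter. Without the filter the adjusted p was 0.0158 by limma. The call of Mfng ended with a pseudocount of 0.1 (−1.52, adjusted p = 0.0836), without the iDam library 1 (0.0637) and without the BryGFP library 1 (0.0690). For Jag2 the difference was −0.45 ± 0.23 (95% interval −0.97 to 0.07; adjusted p = 0.214 by limma) and for Nrarp −0.36 ± 0.21 (−0.85 to 0.12; adjusted p = 0.294), so neither passed, although all 3 genes had a lower mean in BryGFP. Both values moved with the setting and missed the threshold in each: quantile normalization gave −0.71 for Jag2 (adjusted p = 0.0549 by limma) and −0.75 for Nrarp (0.0541), while Jag2 was −0.28 without the BryGFP library 2 and −0.30 without the iDam library 1. Nrarp was −0.18 without the iDam library 1, −0.26 without the BryGFP library 2 and −0.55 without the iDam library 2.

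Between the ko lines none of the 3 genes passed, in a comparison where 3.61% of genes did. The differences of Ainv18ko from iDamko were −0.07 for Jag2 (95% interval −0.59 to 0.45), 0.0035 for Mfng (−0.50 to 0.51) and −0.12 for Nrarp (−0.60 to 0.37), each with an adjusted p of 1 by limma. These intervals still allow changes of up to about 0.6 on that scale. The effects of the line pairs were also tested against each other for Jag2 (−0.38 ± 0.32, adjusted p = 0.637 by limma) and Nrarp (−0.25 ± 0.30, adjusted p = 0.843), and neither passed.

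**Figure D5:**
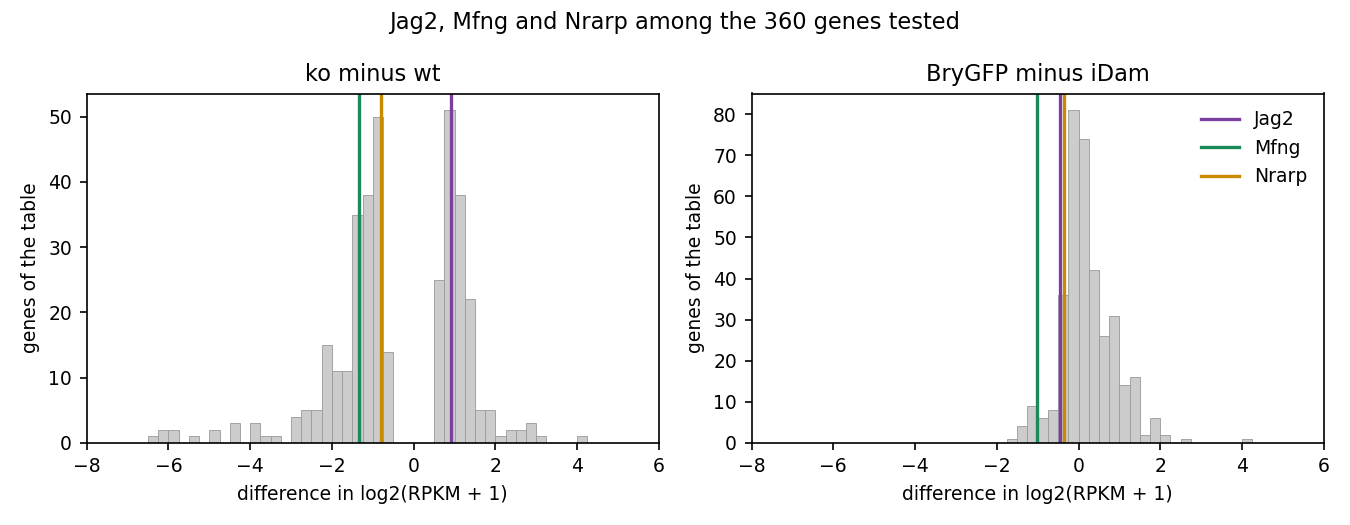
Histograms of the differences in log2(RPKM + 1) of the 360 tested genes (vertical axis, number of genes) for ko minus wt and for BryGFP minus iDam, with coloured lines at Jag2, Mfng and Nrarp. The left histogram is empty around 0 because the table holds selected genes, and all 3 lie within its main peaks, while Mfng lies toward the low side between the wt lines at −1.02.

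The genes whose levels were most like those of Mfng over the 8 libraries included endothelial markers. Cldn5, which encodes a tight junction protein of endothelium, had the highest Pearson r with Mfng (0.989 on log2(RPKM + 1), n = 8, and 0.955 without both iDam libraries). It was at 22.5 and 15.7 RPKM in iDam, 5.82 and 8.45 in BryGFP, 4.00 and 2.88 in iDamko, and 3.44 and 1.99 in Ainv18ko. Cldn5, like Mfng, was thus highest in iDam, next in BryGFP and lowest in the ko lines. Among the next were the transferrin gene Trf (0.985), an antisense transcript listed as Enho (0.981) and the endothelial lectin gene Clec14a (0.972). After the genotype mean was subtracted, Cldn5 (0.961) and Trf (0.947) were again the most alike. Over both endothelial markers the summed level was 9.90 to 39.7 RPKM in wt and 4.87 to 6.24 in ko, and the other 16 of 18 were outside the table. In these bulk samples fewer cells of a type and less RNA per cell cannot be told apart, and the part of the endothelial markers in the result for Mfng was not tested.

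For Jag2 the most alike were the Wnt receptor gene Fzd10 under both of its entries (0.976 for each, entries that may share reads), 2700046A07Rik (0.975), Nt5dc2 (0.964) and Mdm1 (0.958). All were higher in ko, and the protein-coding entry of Fzd10 averaged 11.6 ± 2.23 RPKM over the wt libraries and 26.9 ± 5.35 over the ko libraries (SD, n = 4). For Nrarp they were Rprm (0.980), the sphingosine-1-phosphate transporter gene Spns2 (0.973), the chromatin protein gene Hmga2 (0.971), Snn (0.971) and the gelatinase gene Mmp2 (0.969), and all were lower in ko. Rprm averaged 5.59 ± 1.89 RPKM over the wt libraries and 1.37 ± 0.245 over the ko libraries (SD, n = 4). The libraries fall into the genotypes, so high values are common in this table: r passed 0.9 for 28 of 359 genes with Jag2, 42 with Mfng and 52 with Nrarp. Once the genotype mean was subtracted, these numbers fell to 3, 8 and 2.

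Genes of arterial endothelium, for whose identity Notch signalling is known, and of venous endothelium were mostly outside the table. Of 10 arterial genes it held 2, in opposite directions. The receptor gene Acvrl1 averaged 26.5 ± 15.6 RPKM over the wt libraries against 7.28 ± 1.34 over the ko libraries, and the kinase gene Bmx 0.0841 ± 0.0736 against 0.436 ± 0.143 (SD, n = 4 each). Acvrl1 was, like Mfng, higher in iDam (39.98 RPKM) than in BryGFP (13.1). Of 5 venous genes it held the apelin receptor gene Aplnr, which was lower in ko. Markers of other cells moved as well: all 4 erythroid markers in the table, of 12, were higher in ko, with a summed level of 139 to 170 RPKM against 50.7 to 71.4 in wt. Both smooth muscle markers of 6 were lower in ko (18.7 to 74.2 against 123 to 648 RPKM) and both neural markers of 6 higher (54.5 to 131 against 3.27 to 23.5). The 2 blood markers of 8 in the table split, Gfi1 lower and Itgb2 higher in ko, with overlapping sums of 1.39 to 3.75 RPKM in ko and 1.79 to 5.49 in wt. Their part in the values of Jag2, Mfng and Nrarp was not tested.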

How the data were processed

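Per the labels' protocols, total RNA was freed of ribosomal RNA and sequenced on the SOLiD platform. EdgeR and mm9 are named, without versions or roles, per the submitters' processing notes, while the aligner, the counting, its strand and the annotation are not given in the sources used here. As deposited, the table gives RPKM per library, a unit read from the values since the file header names none. It also gives the authors' log2 folds, mean log2 CPM, p-values and FDR for the 4 ko libraries against each wt line. The deposited folds are coded wt over ko. Columns name lines, not samples. Each was matched to its line by name, with the ko columns that lack the Dam tag taken as Ainv18ko.

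On the log2(RPKM + 1) scale, the 360 genes that reached 1 RPKM on average over the 8 libraries were tested by limma (3.58.1; R 4.3.3) with the trend option. This scale understates changes of low genes. Benjamini-Hochberg adjustment ran over these genes, and an adjusted p under 0.05 was called. Genotypes were compared as 4 libraries against 4, without a term for line, so the libraries of a line counted as separate. Single lines were compared in a fit over all 4 lines that estimates a common spread. The pairs were iDamko with iDam, which share part of a name, and Ainv18ko with BryGFP, the remaining lines. The labels do not say that duplicates came from separate cultures, so p-values measure only the spread between libraries.

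Depth was estimated for each library as the value, between 40000000 and 62000000 reads, at which the largest share of values under about 8 reads came out whole, within 0.05 of a read. At the estimate this held for 42.9% to 73.2% of 24 to 47 values, against at most 37.9% at depths more than 2000000 reads away. Exon lengths for this step were those of GENCODE M21, not the authors', so depths and reads are estimates. Reads per gene are the product of RPKM, this depth and the length that the deposited CPM implies.

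Jag2, Mfng and Nrarp and all gene lists were chosen with earlier results of these data known. Other genes were named by a rule: those of the lists, the 5 with the highest Pearson r with each gene over 8 libraries, the 3 with the highest r after the genotype mean was subtracted, and the nearest gene of the table on each side. A gene that this rule names for Mfng is not reported here. Alternatives were another pseudocount, no filter, quantile normalization, each library left out, line means, a single wt line, the library number as a block and, chosen after seeing the data, each library number alone and annotated exon lengths for the ratio of Nrarp to Jag2.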

Additional observations from a re-analysis of the deposited data

How the results depend on the processing

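Over the alternatives run, Jag2 was higher and Mfng and Nrarp lower in ko than in wt, in all libraries together and in both line pairs. For ko against wt, values with each library left out ran from 0.78 to 1.04 for Jag2, −1.56 to −1.07 for Mfng and −0.89 to −0.67 for Nrarp, with 358 to 360 genes of the table called, and no call ended. Quantile normalization gave −0.57 for Mfng and −0.35 for Nrarp, which did not pass, and 1.39 for Jag2, which passed. The single library numbers gave −1.26 for Mfng (number 1) and −0.65 for Nrarp (number 2), and neither passed. Over 17 alternatives the adjusted p of limma ran from 0.000595 to 0.0335 for Jag2, from 0.000246 to 0.178 for Mfng and from 0.00133 to 0.217 for Nrarp. Quantile normalization moved the median difference up by 0.65, from −0.83 to −0.18, so genes lower in ko came out less different and genes higher in ko more so. A single library number uses fewer libraries. With annotated exon lengths the mean ratio of Nrarp to Jag2 was 4.79 in wt and 1.08 in ko.

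Left-out libraries gave 0.57 to 0.87 for Jag2 in iDamko against iDam, with 306 to 359 genes called, and −0.99 to −0.64 for Mfng and −0.78 to −0.56 for Nrarp in Ainv18ko against BryGFP, with 255 to 355 called. There quantile normalization gave −0.0707 for Mfng and −0.0695 for Nrarp. For the difference between the pairs, they gave −1.29 to −0.75 for Mfng and 14 to 26 genes called. For BryGFP against iDam they gave −1.29 to −0.75 for Mfng, with 48 to 94 genes called, and the pseudocount of 0.1 gave −1.52. Between the ko lines, where none of the 3 genes passed, the sign turned for Jag2 (−0.29 to 0.15) and Mfng (−0.15 to 0.16, and −0.35 under quantile normalization). Without the filter more genes were tested, and 622, 591 and 582 were called for ko against wt, iDamko against iDam and Ainv18ko against BryGFP. With the library number as a replicate block, Jag2, Mfng and Nrarp kept every call, and ko against wt gave 0.91 ± 0.17 for Jag2. The block raised the genes called for the difference between the pairs from 35 to 53. Deviations of same-numbered libraries correlated from −0.203 to 0.695, positive among iDam, iDamko and Ainv18ko and near or below 0 with BryGFP, so the numbers do not pair all samples. The causes of these shifts were not tested. Depth limits Mfng in ko, at 2 to 14 reads per library.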

Other observations

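The nearest genes of the table beside Mfng and Jag2 on the chromosome (GENCODE M21 order) are given as values. Card10, on the same strand as Mfng and 1.66 kb upstream of it, was at 3.27 to 5.26 RPKM in wt and 1.47 to 2.28 in ko. On the other side of Mfng, at 134 kb, Cyth4, a gene for an ARF exchange factor, was at 1.37 to 1.73 RPKM in wt and 0.264 to 0.715 in ko. Both were thus lower in ko, as Mfng was. On chromosome 15 the table held 16 genes lower in ko and 5 higher, against 387 and 235 of all 622. Gpr132, which encodes a G protein-coupled receptor and lies 39.6 kb from Jag2, went the other way from it, at 0.0369 to 0.0618 RPKM in wt and 0 to 0.0139 in ko. All values of Gpr132 were near 0 and far below the filter of 1 RPKM, so its direction rests on little expression. Jag2 was 1 of 10 genes higher in ko among the 66 that the table held on chromosome 12, against 235 of all 622. The 56 lower genes on chromosome 12 were not examined by gene here, and whether they are independent of each other was not tested. The counts therefore describe entries of the table and not a trend of the chromosome. The nearest table genes to Nrarp, Rxra and Plxdc2, lay 2493 and 8425 kb away and were both lower in ko. An annotated antisense transcript, Gm38287, overlaps Nrarp, and a microRNA gene, Mir6941, lies within Jag2. Without a stated use of strand, reads of Nrarp and Gm38287 cannot be told apart.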
